A study of Mus musculus with 4 samples.

Results

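The seed family of miR-130 and miR-301 was examined in mouse skin treated with shikonin, a naphthoquinone pigment from Lithospermum roots, or with acetone, its solvent. The members were chosen by name as the mature rows mmu-miR-130a, mmu-miR-130b, mmu-miR-301a and mmu-miR-301b, hereafter without the prefix for mouse, and are 4 of the 710 microRNAs (miRNAs) on the array. The shikonin group comprised 2 arrays of abdominal skin that had received 100 μl of acetone with shikonin at 10 μg/μl, and the acetone group comprised 2 arrays of abdominal skin that had received acetone alone. All skin was taken at 24 hr, from female C57BL/6JNarl mice of 6 to 8 weeks. The paper calls the arrays of a group biological sample replicates, but neither the labels nor the methods say whether they came from separate animals, so every p-value measures only the spread between these arrays.

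MicroRNAs guide a silencing complex to messenger RNAs, mainly through their seed, bases 2 to 8 from the 5′ end. The family is known for its part in vessel growth and in the stiffening of matrix. In human endothelial cells miR-130a represses the antiangiogenic homeobox genes GAX and HOXA5, and in pulmonary hypertension the family has been placed downstream of YAP and TAZ and upstream of PPARγ, where it promotes collagen deposition and crosslinking. Skin holds the cell types in which these roles were described, in dermal vessels and fibroblasts, beside the keratinocytes of the epidermis.

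The sequences of 3 of the 4 members were matched in the RefSeq table of mature mouse miRNAs (GRCm38.p6) and are shown because the seed defines the family and the remaining bases decide how alike the probes are. The seed is in capitals.
miR-130a: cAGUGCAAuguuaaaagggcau
miR-130b: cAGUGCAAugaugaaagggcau
miR-301a: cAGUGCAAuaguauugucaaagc
The mature miR-130a lies at chr2:84741116-84741137 on the minus strand, and its hairpin is contained in no other gene of the table. The mature miR-130b lies at chr16:17124071-17124092 on the minus strand. The genes Mir130b and Mir301b are neighbours, 257 bases apart, and both lie within 2610318N02Rik. The mature miR-301a lies at chr11:87113054-87113076 on the plus strand, within Ska2, a gene for a protein of the spindle and kinetochore. Mature miR-130a and miR-130b were identical at 20 of 22 positions and differed by U11A and A13G, with the base of miR-130a first and positions counted from 1 at the 5′ end. miR-130a and miR-301a shared their first 9 bases and were identical at 12 of the 22 positions compared. The probes are reverse complements of such sequences, and how much one member's RNA was captured by another's probe was not tested.

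Over all spots, shikonin arrays had a median intensity of 376 and 488, and acetone arrays one of 352 and 416. Between 239 and 270 of 5680 spots were empty on the shikonin arrays and between 364 and 398 on the acetone arrays. The background of each array was taken as the median of 35 miRNAs of brain, liver, pancreas, embryonic stem cells and testis, and a miRNA whose median spot lay more than 3 median absolute deviations over this level was called above background. By this rule 196 and 249 miRNAs were above background on the shikonin arrays and 200 and 226 on the acetone arrays, and 148 were so on all 4. Of 8 markers of keratinocytes only 3 were among the 148, namely miR-203, miR-205 and miR-200c. The other keratinocyte markers were above background on both acetone arrays but on at most 1 shikonin array. Of 8 markers of fibroblasts and mesenchyme 7 were among them, miR-199a-3p included. Of the pair of endothelial markers miR-126-3p was above background on all 4 arrays and miR-126-5p on none. The 8 spots of a miRNA are repeats within 1 array and not replicates of a treatment.

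The question put to these arrays was which skin miRNAs differ between shikonin and its solvent. In limma, with Benjamini-Hochberg adjustment over all 710 miRNAs, miR-197 and miR-574-3p were higher with adjusted p under 0.05 (0.282% of all miRNAs), and 0 miRNAs were lower (0.00%). Neither call was made when any 1 array was left out, nor with the mean of spots, cyclic loess or the replicate block, each of which gave 0 calls. At an unadjusted p under 0.05, 47 were higher (6.62%) and 78 lower (11.0%). No member of the family passed after adjustment. miR-130a, miR-130b and miR-301a each had both shikonin values below both acetone values and an unadjusted limma p under 0.05, while the values of miR-301b overlapped between the groups. This downward separation was found for 26.8% of all miRNAs, and for 48.6% of the 148 above background on every array, to which miR-130a and miR-130b belong. Of these 148, 37.8% were lower at an unadjusted p under 0.05. Such values are therefore common among bright miRNAs and are not particular to the family. In RNA of whole skin, fewer cells of a type and less of a miRNA per cell cannot be told apart.

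miR-130a, the member best known from blood vessels, had the lowest fold change of the family. Its median raw spot intensity was 780 and 720 on the shikonin arrays, against 2849 and 2073 on the acetone arrays. These were 2.35 and 1.70 times the background level on the shikonin arrays, against 9.13 and 5.63 times on the acetone arrays. miR-130a was thus above background on every array, with no overlap between the treatments. For miR-130a the acetone medians rest on 7 filled spots each, 4 early and 3 late in table order, against 8 on the shikonin arrays. After quantile normalization its log2 intensity was 9.83 and 9.36 on the shikonin arrays, against 11.33 and 10.58 on the acetone arrays. The means were 9.59 ± 0.33 in shikonin-treated skin and 10.96 ± 0.53 in acetone-treated skin (SD, n = 2 each). The log2 fold change was -1.36 (SE 0.32, 95% interval -2.27 to -0.46), 2.57-fold lower with shikonin, at a limma adjusted p of 0.161. In the order of fold changes from the lowest, miR-130a stood at place 6 of all 710 miRNAs. Leaving out single arrays gave log2 fold changes from -1.65 to -0.93.

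The spots of miR-130a were unevenly bright within an array. On acetone replicate 1 its first 4 spots in table order ranged from 2849 to 3649, whereas its 3 filled spots among the last 4 ranged from 1192 to 1360. Because the empty spot was a late one, the median of 2849 on this array was its lowest early spot and leans to the bright side. Over the 148 bright miRNAs the median log2 difference of the first 4 over the last 4 spots was 0.16 and 0.09 on the shikonin arrays, against 0.45 and -0.03 on the acetone arrays. Acetone replicate 1 was therefore the array on which the early spots stood out, for miR-130a and for bright miRNAs generally. Among the last 4 spots alone, those of miR-130a ranged from 632 to 752 and from 640 to 864 on the shikonin arrays, against 1192 to 1360 and 1872.5 to 2073 on the acetone arrays, without overlap. Among the first 4 the spots did overlap, with 808 to 2313 on shikonin replicate 1 and 2073 to 4905 on acetone replicate 2. With the last 4 spots of every miRNA, a setting added after the spots had been seen, the log2 fold change of miR-130a was -1.02 (SE 0.13) and its limma adjusted p was 0.124. With the first 4 it was -1.55 (SE 0.44) and the adjusted p was 0.202.

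**Figure D1:**
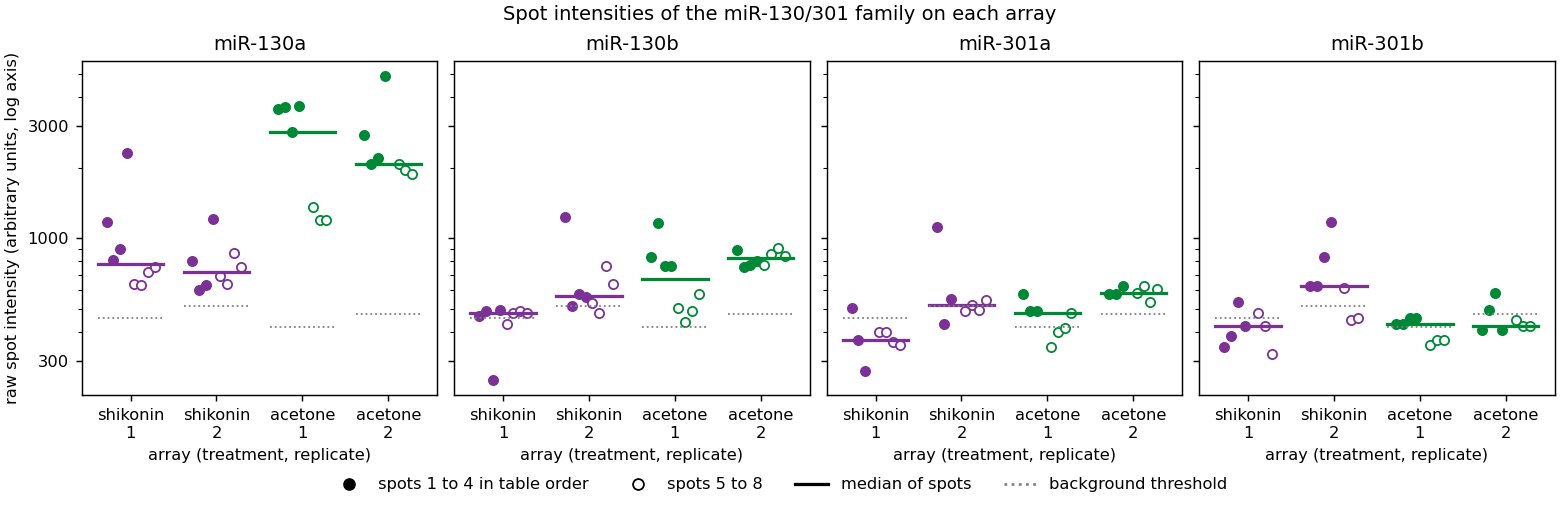
Raw intensity (log axis) of every filled spot of the 4 members on the 2 shikonin and 2 acetone arrays, with filled circles for spots 1 to 4 in table order, open circles for spots 5 to 8, solid bars for the median and dotted bars for the background threshold of the array. The medians of miR-130a are 780 and 720 on the shikonin arrays, against 2849 and 2073 on the acetone arrays, while those of miR-301a and miR-301b lie near the threshold on all 4.

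miR-130b, which shares all but 2 bases with miR-130a, differed less between the treatments. Its median raw spot intensity was 480 and 568 on the shikonin arrays, against 668 and 820 on the acetone arrays. The medians exceeded the threshold on every array, though on the shikonin arrays they were only 1.45 and 1.34 times the background level, against 2.14 and 2.23 times on the acetone arrays. The normalized log2 intensity was 9.03 and 8.94 on the shikonin arrays, against 9.64 and 9.40 on the acetone arrays. The groups did not overlap, with means of 8.99 ± 0.07 in shikonin-treated skin and 9.52 ± 0.17 in acetone-treated skin (SD, n = 2 each). The log2 fold change was -0.54 (SE 0.12, 95% interval -0.87 to -0.20) at a limma adjusted p of 0.151. Over the last 4 spots alone it was -0.33. The passenger strand miR-130b*, from the other arm of the same hairpin, was above background on no array, with 8.43 on each shikonin array and 8.50 and 8.52 on the acetone arrays (log2), so no fold is given.

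miR-301a, encoded within Ska2 and known in human cancer cells for repressing the NF-κB inhibitor NKRF, lay close to background. Its median raw spot intensity was 368 and 520 on the shikonin arrays, against 480 and 584 on the acetone arrays. It was above background on shikonin replicate 2 and on both acetone arrays but not on shikonin replicate 1. In raw intensity the groups overlapped, since shikonin replicate 2 exceeded acetone replicate 1. In normalized log2 intensity, at 8.61 and 8.80 on the shikonin arrays and 9.19 and 9.05 on the acetone arrays, they did not. The means were 8.71 ± 0.13 in shikonin-treated skin and 9.12 ± 0.10 in acetone-treated skin (SD, n = 2 each). The log2 fold change was -0.41 (SE 0.11, 95% interval -0.73 to -0.10) at a limma adjusted p of 0.189, and -0.26 over the last 4 spots alone.

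miR-301b, the neighbour of miR-130b in the genome, did not separate the treatments. Its median raw spot intensity was 424 and 624 on the shikonin arrays, against 432 and 424 on the acetone arrays. Only shikonin replicate 2 and acetone replicate 1 exceeded their background threshold. The normalized log2 intensity was 8.83 and 9.11 on the shikonin arrays, against 8.98 and 8.68 on the acetone arrays, so the groups overlapped. The log2 fold change was 0.14 (SE 0.17) at a limma adjusted p of 0.753. Its 95% interval of -0.33 to 0.60 includes the estimates of neither miR-130b nor miR-301a. It does overlap their intervals of -0.87 to -0.20 and -0.73 to -0.10, so it does not settle whether these members differ. For miR-301b, leaving out single arrays gave values from -0.015 to 0.29, with a sign that depended on the array.

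**Figure D2:**
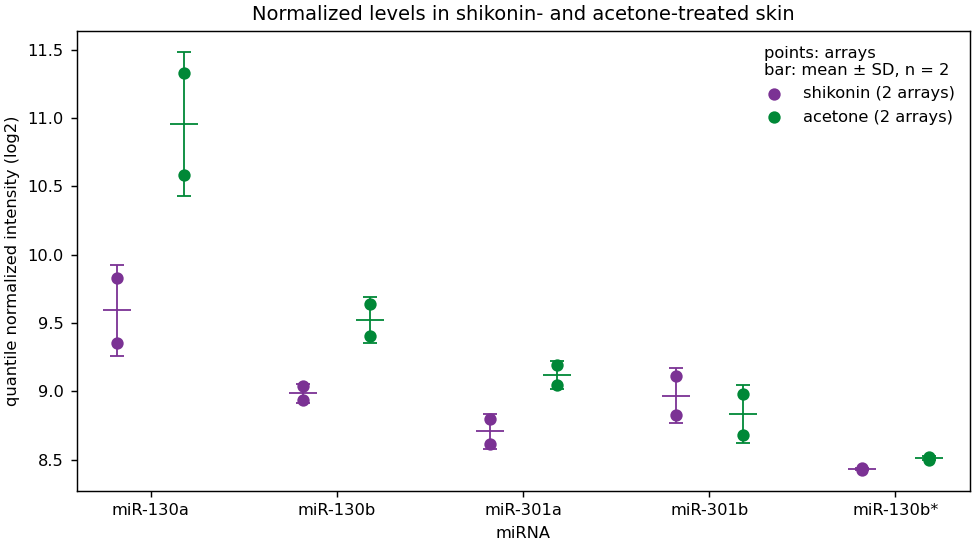
Quantile normalized log2 intensity of the 4 members and of miR-130b* (y axis), with 1 point per array, shikonin left of acetone, and bars for mean ± SD of 2 arrays. miR-130a, miR-130b and miR-301a are lower on both shikonin arrays, miR-301b overlaps, and miR-130b* lies at 8.43 to 8.52 on all arrays.

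The members were also compared with each other within arrays, where an array's overall brightness cancels. The size of such a log2 ratio also holds the difference between the probes, so only its shift between treatments is of use. The log2 ratio of miR-130a to miR-130b was 0.79 and 0.42 on the shikonin arrays, against 1.69 and 1.18 on the acetone arrays, a shift of -0.83. The ratio of miR-130a to miR-301b shifted by -1.50 and that of miR-130b to miR-301b by -0.67, each without overlap between treatments. The ratio of miR-130b to miR-301a shifted by only -0.12 and overlapped. An exact two-sided permutation test of 2 against 2 arrays cannot go below p = 0.333. Of the 6 pairs 5 gave that value (0.4 after adjustment over the pairs) and the pair miR-130b and miR-301a gave 0.667. At this size the test could not have passed a threshold of 0.05, so it leaves undecided whether members differ in their shift. Intensities without background subtraction understate the differences of dim miRNAs, and after normexp background correction the log2 fold changes were -1.64 for miR-130a, -0.79 for miR-130b, -0.71 for miR-301a and 0.23 for miR-301b.

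Of the 1738 mature miRNAs in the RefSeq table, 7 carry the seed AGUGCAA, and 4 of these have a row on the array under their name. Beside the 3 matched members this is miR-721. The seeds of the miR-148/152 family and of miR-19 overlap the family's seed by 6 bases, and these sequences are shown because miRNAs that share seed bases can share targets. Bases 2 to 8 are in capitals.
miR-721: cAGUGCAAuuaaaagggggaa
miR-148a: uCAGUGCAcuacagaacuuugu
miR-148b: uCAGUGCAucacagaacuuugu
miR-152: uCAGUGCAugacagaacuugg
miR-19a: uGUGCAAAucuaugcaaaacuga
miR-19b: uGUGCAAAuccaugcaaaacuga
None of these 6 passed in limma. The median log2 fold change was -0.01 over all miRNAs, -0.28 over the 148 bright ones and -0.53 over the 123 outside the repeat-rich families. Against these, the 6 relatives had a median of -0.60. For the 4 that were above background on all arrays, both shikonin values lay below both acetone values, as they did for 48.6% of the 148 bright miRNAs. miR-152, which represses DNA methyltransferase mRNA, gave 9.77 and 9.18 on the shikonin arrays, against 10.64 and 10.30 on the acetone arrays (log2), a difference of -0.99 (SE 0.25). Its relative miR-148a gave -0.84 (SE 0.14). miR-19b, an oncogenic member of the miR-17-92 cluster, gave 9.87 and 9.62 on the shikonin arrays, against 10.38 and 10.93 on the acetone arrays (log2), and a log2 fold change of -0.91 (SE 0.23), and for miR-19a the change was -0.36 (SE 0.10). Their limma adjusted p lay between 0.134 and 0.189. miR-148b exceeded background on 1 of the 4 arrays, a shikonin array, and miR-721, the relative with the identical seed, on none, and both had a log2 fold change of 0.06.

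**Figure D3:**
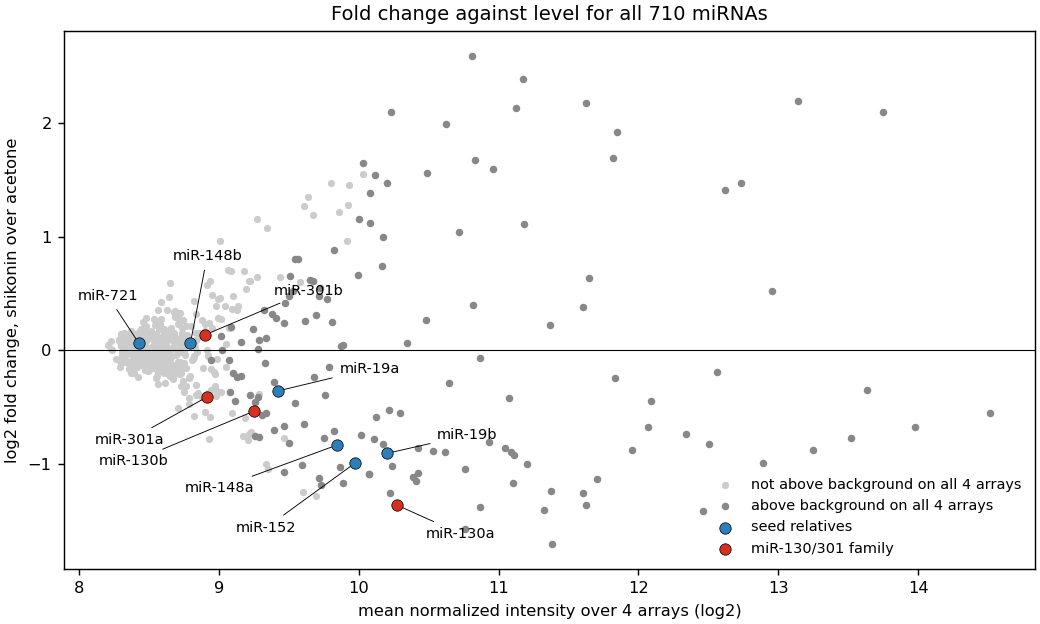
Log2 fold change of shikonin over acetone (y axis) against the mean normalized log2 intensity over 4 arrays (x axis) for all 710 miRNAs, with the family in red, its seed relatives in blue and miRNAs above background on all 4 arrays in dark grey. miR-130a lies at -1.36 near the lower edge, and the dim miR-301b, miR-148b and miR-721 lie near 0.

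Other miRNAs known to act on vessels or on matrix give the setting for the family. Both lists were drawn up with earlier results of these arrays known. Of 25 vessel miRNAs, 17 were above background on all 4 arrays, 0 passed in limma in either direction, and at an unadjusted p under 0.05 14 were lower and 1 was higher, where 11.0% of all miRNAs and 37.8% of the 148 bright ones were lower. Their median log2 fold change was -0.40, against -0.01 over all miRNAs. The 17 bright ones had a median of -0.88, against -0.28 over the 148. Outside the repeat-rich families miR-669, miR-467, miR-466 and miR-297, whose bright members lay above 0, the median over the remaining 123 was -0.53, and miR-130b at -0.54 lay close to it. miR-126-3p, the main endothelial miRNA, which sustains VEGF signalling, gave 10.52 on each shikonin array, against 12.01 and 11.37 on the acetone arrays (log2), a difference of -1.17 (SE 0.24). The lowest bright member was miR-24 at -1.42 (SE 0.25), which represses endothelial growth genes. The highest was miR-15b at 0.38 (SE 0.46), and miR-16, the brightest, gave -0.77 (SE 0.34). Both are known for repressing VEGF.

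Of 18 matrix miRNAs, 11 were above background on all 4 arrays and 0 passed in limma, with 10 lower and 0 higher at an unadjusted p under 0.05, beside the same 11.0% of all and 37.8% of bright miRNAs that were lower. The median log2 fold change was -0.76, against -0.01 over all miRNAs, and -0.86 over the 11, against -0.28 over the 148. Outside the repeat-rich families the median over the 123 remaining bright miRNAs was -0.53. miR-26a, the brightest, which restrains Smad signalling, gave -0.99 (SE 0.18). miR-199a-3p, from mesenchymal cells, was the lowest bright member at -1.57 (SE 0.20). miR-214, which shares a transcript with miR-199a, was the highest at 1.11 (SE 0.57). Its log2 intensity was 10.95 and 12.53 on the shikonin arrays, against 10.56 and 10.69 on the acetone arrays.

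**Figure D4:**
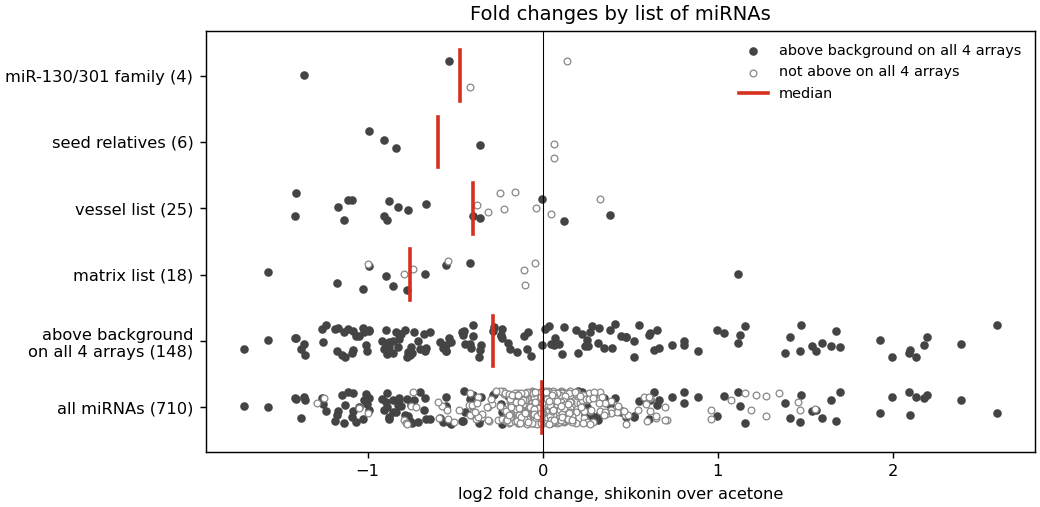
Log2 fold change of shikonin over acetone (x axis) for each miRNA of the family, its seed relatives, the vessel list, the matrix list, the 148 miRNAs above background on all 4 arrays and all 710, with red bars at the medians. The medians are -0.47 for the family, -0.60, -0.40 and -0.76 for the 3 lists, -0.28 for the 148 and -0.01 for all miRNAs.

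Markers of several skin cell types also had lower values on the shikonin arrays, 0 of them past the test, and their part in the values of the family was not tested. In the counts that follow a marker is lower when both its shikonin values lay below both acetone values, which held for 26.8% of all miRNAs and 48.6% of the bright ones. The summed normalized intensity of both endothelial markers was 1799 to 1804 on the shikonin arrays, against 2972 to 4443 on the acetone arrays, with 1 of the 2 lower. The other, miR-126-5p, was above background on no array, and both its shikonin values lay above both acetone values. For 8 fibroblast and mesenchyme markers the sum was 9726 to 11848 on the shikonin arrays, against 14443 to 19149 on the acetone arrays, with 7 lower on both shikonin arrays. The exception, miR-214, was higher on both, at a log2 fold change of 1.11. For 8 keratinocyte markers the sum was 3990.5 to 7763 on the shikonin arrays, against 11908 to 13663 on the acetone arrays, with all 8 lower. All of these 8 were above background on both acetone arrays, but only 3 were so on all 4 arrays. The others were so on at most 1 shikonin array, so the filter on all 4 arrays drops markers for being low there. The median log2 fold change was -1.01 for the fibroblast and -1.04 for the keratinocyte markers, and -0.47 for the family, whose miR-301a and miR-301b lay near background. Over members above background on all 4 arrays the median was -0.95 for the family (2 miRNAs). It was -1.03 for fibroblast (7) and -1.15 for keratinocyte markers (3), against -0.28 over the 148 bright miRNAs. Over the 123 bright miRNAs outside the repeat-rich families the median was -0.53. The 6 miRNAs listed as adipocyte markers summed to 3565 to 3589.5 on the shikonin arrays, against 5712 to 5752 on the acetone arrays, and 5 were lower. The brightest of them, miR-103, gave 10.15 and 10.32 on the shikonin arrays, against 11.08 and 11.48 on the acetone arrays (log2). Whether these miRNAs mark adipocytes in this skin was not tested. Of the adipocyte markers miR-378* was above background on no array. The 7 striated muscle markers summed to 4379 to 5307 on the shikonin arrays, against 6449 to 11434 on the acetone arrays. Among them 5 were lower and 1, miR-208a, was higher, and miR-208a, miR-208b and miR-499 were above background on no array. The sums of the 7 leukocyte markers overlapped, at 4209 to 5768 on the shikonin arrays and 5311 to 5751 on the acetone arrays. Of these markers 3 were lower and 6 had a log2 fold change below 0, the exception being miR-223 at 0.40, and miR-142-3p and miR-155 were above background on no array. The sums of the 3 red blood cell markers overlapped as well, at 1271 to 1474 on the shikonin arrays and 1278 to 1470 on the acetone arrays. Of these 3, 0 were lower and 1 was higher, with a median log2 fold change of 0.017, and 0 were above background on all 4 arrays. Several miRNAs stand in more than 1 list, as miR-199a-3p does in the matrix and fibroblast lists, so the lists are not independent.

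The miRNAs with a pattern over the 4 arrays most like that of miR-130a and miR-130b were sought among the other 147 bright miRNAs, by the Euclidean distance between log2 values after subtracting each miRNA's own mean. Nearest to miR-130a were miR-24 at 0.15, miR-199b at 0.19 and miR-199a-5p at 0.24. Nearest to miR-130b were miR-185 at 0.084, miR-107 at 0.10 and miR-361 at 0.12. miR-130a and miR-130b themselves were 0.94 apart, so neither was among the nearest of the other. With 4 arrays these distances describe the profiles and carry no test.

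**Figure D5:**
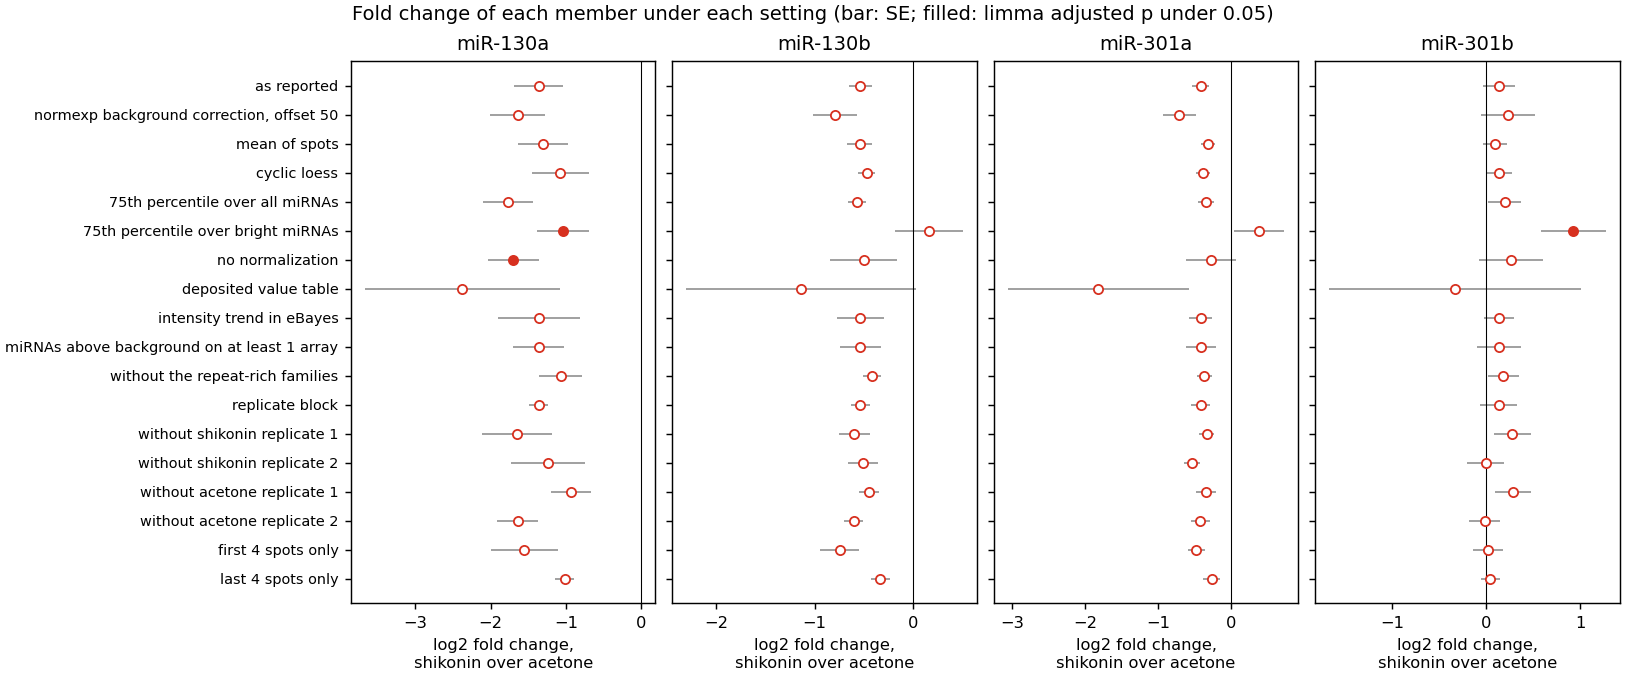
Log2 fold change of shikonin over acetone (x axis) of each member as reported and under 17 other settings (rows), with bars for the SE and filled circles for a limma adjusted p under 0.05. miR-130a lies below 0 in every row shown, while miR-301b lies on either side of 0. The rows for the intensity trend, the filter on background and the replicate block repeat the fold change as reported.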

How the data were processed

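Total RNA of skin was hybridized to a Geniom biochip, on which a captured miRNA primes an extension with biotinylated nucleotides. Per the file headers and values, the spots were deposited as linear intensity, 8 for each miRNA of an array and not normalized. The authors also deposited log2 values, 1 for each miRNA of an array, whose exact scale is unknown and which served as an alternative. Their summary of spots is not stated in the labels or methods.

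The median of the filled spots of each miRNA was quantile normalized in linear units over the 4 arrays and converted to log2 with a floor of 1, without background correction or filter. Arrays were grouped by treatment in their labels and compared in limma 3.58.1 (R 4.3.3), two-sided, at an adjusted p of 0.05. Only the limma fit was tested on simulated data, with independent noise around normalized means. The spot summary, the normalization and the background rule were not covered. The number of arrays limits precision. Alternatives covered background, spots, scaling, filters, pairing and single arrays.

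The members and lists were chosen with earlier results of these data known. The miRNAs named were the members, their passenger strand, seed relatives, miRNAs past the test, of each list the brightest, highest and lowest bright member, and the 3 nearest profiles. Further miRNAs were named as defining or undetected cell type markers, and miR-223 and miR-103 after their values were seen. An array row whose arm its name does not settle was left out of the seed relatives (1 row). Sequences are from RefSeq, while the deposited tables name no genome build.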

Additional observations from a re-analysis of the deposited data

How the results depend on the processing

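Over 17 alternatives the log2 fold change of miR-130a was below 0 in all 17 (-2.37 to -0.93), those of miR-130b and miR-301a in 16 each, and that of miR-301b in 3. The intensity trend, the filter on background and the replicate block leave the members' fold changes as reported, so their signs add nothing to these counts. miR-130a passed in limma with no normalization (-1.70) and with scaling to the 75th percentile over bright miRNAs (-1.03), where 1 pooled spread served all miRNAs. Scaling over bright miRNAs moved the median of all miRNAs to 0.80, and no normalization to 0.14. It placed miR-130b at 0.16, miR-301a at 0.39 and miR-301b, which then passed, at 0.93, and relative to that median these were -0.64, -0.42 and 0.13. It also moved the vessel median to 0.26. miR-301b was at -0.33 in the deposited value table (SE 1.34), at -0.0070 without shikonin replicate 2 and at -0.015 without acetone replicate 2, in a range of -0.015 to 0.29 with single arrays left out. The cause was not tested.

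The count of miRNAs past the test, 2 as reported (2 higher, 0 lower), was 0 with the mean of spots, cyclic loess, the deposited value table, the last 4 spots or any 1 array left out (0 to 0 in limma, with 63 to 101 at an unadjusted p under 0.05). It was 1 over miRNAs above background on at least 1 array, 4 with the first 4 spots, 38 with an intensity trend (24 higher, 14 lower), 83 with no normalization (30 and 53) and 495 with scaling over bright miRNAs (470 and 25). Scaling over all miRNAs gave 0 higher and 2 lower. With no normalization 11 vessel miRNAs, 9 matrix miRNAs and 3 seed relatives passed, and with scaling over bright miRNAs 11, 7 and 2. An intensity trend called 4 matrix miRNAs and scaling over all miRNAs 1.

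The labels number replicates 1 and 2 in both groups and do not say what the numbers stand for. Across miRNAs, the deviations of same-numbered arrays from their group means had a weak negative correlation (r = -0.28). Whether the numbers pair arrays cannot be told. With the replicate block miR-130a had an adjusted p of 0.152, and 0 miRNAs passed (116 at an unadjusted p under 0.05). With the pairing crossed, added after the data had been seen, 35 passed. With 4 arrays and miR-301a and miR-301b near background, a small difference was not detectable.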

Other observations

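Of the 8 spots of miR-130a, the first of the last 4 in table order was empty on both acetone arrays, while on the shikonin arrays it read 640 and 688. The corresponding spot of miR-301b was empty on all 4 arrays. In the deposited value table miR-301a was at 5.10 and 7.03 on the shikonin arrays, against 7.87 and 7.88 on the acetone arrays (log2).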
